A study of Mus musculus with 7 samples.

Results

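The genes of GPVI and CLEC-2 tyrosine kinase signalling were followed through bulk transcriptomes of megakaryocyte progenitors (MkPs), the committed bone marrow precursors of platelet-forming megakaryocytes. The members were listed by gene name. They are 10 of the 21615 genes in the count table: Gp6, Clec1b, Fcer1g, Syk, Lat, Lcp2, Plcg2, Btk, Vav1 and Treml1. All 10 were found under these symbols, and all 10 passed the filter on low counts.

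MkPs came from the bone marrow of wild-type C57BL/6 mice. The gate took cells that were positive for CD41, CD150 and CD117 and that lacked Sca-1 and lineage markers, and CD48 on the surface split them into CD48-/lo MkPs (3 libraries, replicates 1, 3 and 4) and CD48hi MkPs (4 libraries, replicates 1, 3, 4 and 5). In the study these subsets stand for separate routes from stem cells to platelets, and the comparison asks how their transcripts differ. The mice carried no transgene or treatment according to the labels, which give neither age nor sex. Whether separate libraries stand for separate mice is not stated, so p-values measure only the spread between libraries, which may be technical.

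Platelets meet exposed collagen through glycoprotein VI (GPVI) and meet podoplanin through the C-type lectin CLEC-2. Collagen binding makes Src-family kinases phosphorylate the immunoreceptor tyrosine-based activation motif (ITAM) of the FcR gamma chain, which carries GPVI, whereas CLEC-2 has a hemITAM with a single tyrosine of its own. The kinase Syk docks on the phosphorylated motifs and phosphorylates LAT and SLP-76, the scaffolds on which Vav1, Btk and phospholipase C gamma 2 assemble to raise calcium, while receptors with an inhibitory motif (ITIM) recruit phosphatases.

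The tyrosines on which this pathway turns lie in short stretches of the receptor and adaptor transcripts. A search of the GENCODE M21 reference coding sequences (mm10) covered Fcer1g, Clec1b, Treml1 and Gp6 only. Lat, Lcp2 and the other members were not searched. The stretches are shown for the 3 members in which the motif named was found. They are read 5′ to 3′ on the coding strand with the tyrosine codons in capitals. The Fcer1g stretch carries the paired tyrosines of the ITAM and spans codons 65 to 79 of 86, with flanking codons, at chr1:171229877-171230084 on the minus strand across an exon boundary. The Clec1b stretch holds the single hemITAM tyrosine in codons 3 to 10 of 229 at chr6:129397615-129397656 on the plus strand. The Treml1 stretch holds the ITIM tyrosine in codons 284 to 289 of 317 at chr17:48366800-48366841 on the plus strand.
Fcer1g ITAM: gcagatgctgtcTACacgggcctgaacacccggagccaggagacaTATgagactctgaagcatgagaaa
Clec1b hemITAM: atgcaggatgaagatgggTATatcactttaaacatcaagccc
Treml1 ITIM: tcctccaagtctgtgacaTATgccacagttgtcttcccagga
The ITIM pattern also matched Fcer1g once, at codons 41 to 46, a stretch not known as an ITIM and not shown. The Gp6 coding sequence of 313 codons held 0 matches to the 3 patterns. Its partner Fcer1g held 1 ITAM, so the receptor with no motif and the chain that carries it were measured as separate transcripts.

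The libraries held 48899037 to 51161449 counts in CD48-/lo MkPs (5348 to 6497 sorted cells) and 51537445 to 69324909 counts in CD48hi MkPs (14033 to 20826 sorted cells). CD48-/lo replicates 1 and 4 stood apart, with 2.61% and 2.91% of counts from mitochondrially encoded genes, against 0.482% in CD48-/lo replicate 3 and 0.138% to 0.400% in the CD48hi libraries. Among CD48hi libraries, replicates 4 and 5 differed from replicates 1 and 3 by gene length. Genes of at most 1545 bases (the lower quartile) had a median deviation from their mean log2 CPM of -0.41 in replicate 4 and -0.51 in replicate 5, against 0.17 in replicate 1 and 0.23 in replicate 3, and it lay between 0.11 and 0.28 in the CD48-/lo libraries. For genes of at least 5823 bases (the upper quartile) it was 0.233 in CD48hi replicate 4 and 0.257 in replicate 5. Replicates 1 and 3 differed here, at -0.345 and -0.042, and the CD48-/lo libraries lay between -0.051 and 0.044. All 12 megakaryocyte markers were in the table. Their summed level ranged from 5009 to 7501 CPM in CD48-/lo libraries and from 5830 to 7167 CPM in CD48hi libraries. This sum does not test the label, since the list includes Itga2b, the gene of the gate antigen CD41. Single markers went both ways, with 6 higher and 6 lower in CD48-/lo by the fitted log2 difference. CPM is the count scaled to a library total of 1000000, with the TMM factors of edgeR.

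The transcripts for the signalling machinery were abundant in both subsets and those for the collagen receptor were scarce. On the TPM scale, which divides by gene length and so allows levels of different genes to be compared, the means over the 7 libraries were 180 TPM for Plcg2, 149 for Lat, 145 for Vav1, 126 for Fcer1g, 125 for Btk, 93.2 for Lcp2 and 92.2 for Treml1. Each of these 7 genes overlapped its neighbours in this order when single libraries were compared, so their order is not resolved. With the table's gene lengths, the other members lay lower. Syk ranged from 8.18 to 29.8 TPM, under the lowest value of any of the 7 genes (53.5 TPM, Btk), Clec1b from 2.57 to 6.93 TPM and Gp6 from 0 to 0.660 TPM. The table's gene lengths for Clec1b (5103 bases) and Gp6 (5900 bases) include long transcript forms, among them a retained-intron form of 4347 bases beside a coding form of 1090 bases for Clec1b, and a form of 965 bases for Gp6. With the shorter lengths Clec1b would range from 12.02 to 32.5 TPM, which overlaps Syk, and Gp6 would reach at most 4.04 TPM, so the order of Clec1b and Syk depends on the length used.

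**Figure D1:**
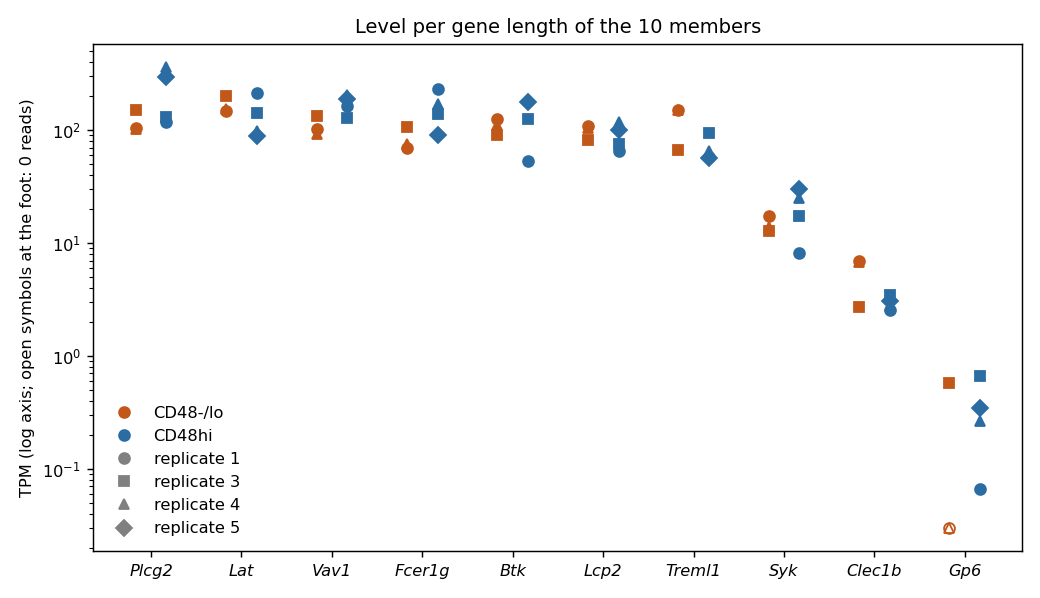
TPM of each member in each library on a log axis, ordered by mean level, with CD48-/lo libraries (orange) left of CD48hi libraries (blue) and open symbols at the foot for libraries with 0 reads. Plcg2 to Treml1 overlap around 100 TPM, whereas Syk, Clec1b and Gp6 lie below them with the table's gene lengths, and Gp6 has 0 reads in 2 CD48-/lo libraries.

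No member passed the threshold between the subsets. By edgeR's quasi-likelihood test with Benjamini-Hochberg adjustment over 16653 genes, 0 of the 10 members had an adjusted p under 0.05, where 0.192% of all genes tested did. At an unadjusted p under 0.05 the count was 2 (Clec1b and Treml1, higher in CD48-/lo), where 17.2% of all genes passed. DESeq2 called 0 of 10 members (5.86% of all genes) and limma voom with quality weights called 0 of 10 (2.36%). In counts simulated for these libraries, the edgeR test recovered 1 of 50 genes changed 2-fold and 40 of 50 changed 4-fold. A member without a call may therefore still differ by about 2-fold, and changes of 4-fold were not all recovered either. For Gp6 larger differences are not excluded, since its 95% interval ran from -4.12 to 2.63 on the log2 scale. The log2 difference of CD48-/lo minus CD48hi was above 0 for 4 members and below 0 for 6, with a median of -0.19, against 0.03 over all genes tested. In 1 of 10 members the libraries of the subsets did not overlap, where 14.6% of all genes did not overlap. Without CD48-/lo replicate 3 this count was 6 of 10, where 33.8% of all genes did not overlap. In bulk RNA, fewer cells of a type and less RNA per cell cannot be told apart.

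**Figure D2:**
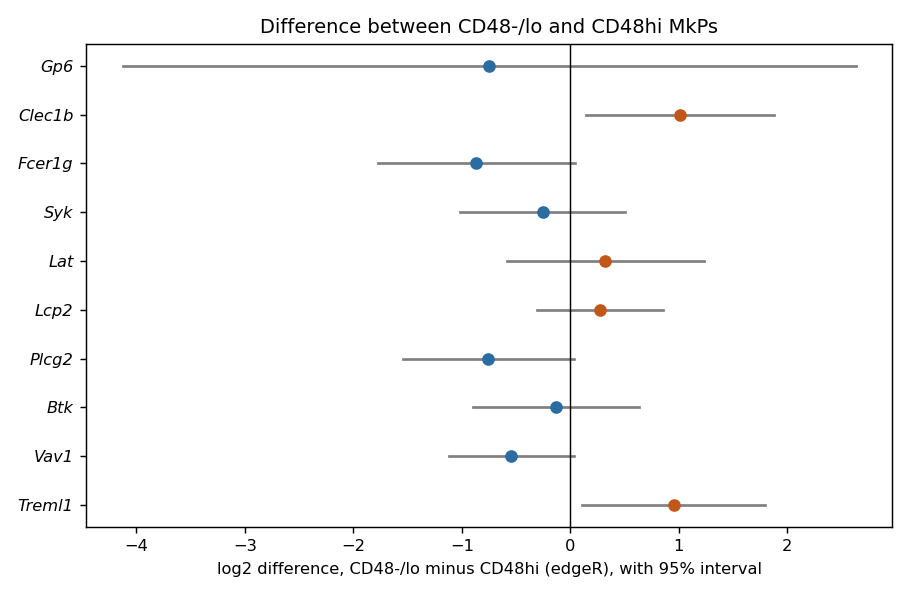
Log2 difference of each member between CD48-/lo and CD48hi MkPs from edgeR (points) with 95% intervals (lines), orange above 0 and blue below. The intervals of Clec1b (0.14 to 1.88) and Treml1 (0.11 to 1.80) lie above 0 before adjustment, and that of Gp6 is the widest.

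Of the receptors, Gp6, which encodes the collagen receptor GPVI (ENSMUSG00000078810, chromosome 7, 4363965 to 4397744, minus strand), was detected in some libraries only. It had 0, 77 and 0 reads in CD48-/lo replicates 1, 3 and 4 and 13, 96, 32 and 44 reads in CD48hi replicates 1, 3, 4 and 5. Scaled by depth, this was 0, 1.47 and 0 CPM in CD48-/lo libraries against 0.201, 1.77, 0.616 and 0.715 CPM in CD48hi libraries. The CD48-/lo values therefore came from replicate 3 alone, and the ranges of the subsets overlapped. A count of 0 allowed up to 0.0565 CPM in replicate 1 and 0.0607 CPM in replicate 4, taking 3 reads as the limit. This limit covers counting error only, since amplified reads are not independent molecules. The log2 difference was -0.75 ± 1.53 (SE), with an edgeR adjusted p of 0.834. The fitted value of a gene with libraries at 0 depends on the fit, and 1 library decided much of it here. It was -8.55 without CD48-/lo replicate 3 (edgeR adjusted p = 0.101), -0.057 without CD48hi replicate 3 (edgeR adjusted p = 0.988), -3.59 with the replicate block (edgeR adjusted p = 0.672) and -4.93 by limma voom (adjusted p = 0.0683).

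Clec1b, which encodes the podoplanin receptor CLEC-2 (ENSMUSG00000030159, chromosome 6, 129397297 to 129409335, plus strand), had 16.1, 6.07 and 16.9 CPM in CD48-/lo replicates 1, 3 and 4, against 6.70, 8.05, 5.62 and 5.47 CPM in the CD48hi libraries. CD48-/lo replicates 1 and 4 were above every CD48hi library, and replicate 3 lay among them, so the subsets overlapped. The means were 13.02 ± 6.03 CPM in CD48-/lo (SD, n = 3) and 6.46 ± 1.19 CPM in CD48hi (SD, n = 4). The log2 difference of 1.01 ± 0.39 (SE; 95% interval 0.14 to 1.88) did not pass after edgeR's adjustment (adjusted p = 0.246, unadjusted p = 0.0264). Without CD48-/lo replicates 1 and 4, a setting chosen after the data were seen that leaves 1 CD48-/lo library and so is given with no test, the log2 difference was -0.14. The gene overlaps Clec9a on the same strand, a gene at 0 to 1.78 CPM in CD48-/lo and 0.202 to 2.43 CPM in CD48hi libraries.

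Fcer1g encodes the FcR gamma chain, the signalling partner of GPVI and of several Fc receptors (ENSMUSG00000058715, chromosome 1, 171229572 to 171234365, minus strand). It had 27.8, 40.4 and 32.2 CPM in CD48-/lo libraries, against 102.6, 54.5, 59.4 and 27.4 CPM in CD48hi libraries. The CD48hi libraries spread 3.75-fold from lowest to highest and enclosed the CD48-/lo libraries, which spread 1.45-fold. The means were 33.5 ± 6.37 CPM in CD48-/lo (SD, n = 3) and 61.0 ± 31.1 CPM in CD48hi (SD, n = 4). The log2 difference was -0.87 ± 0.41 (SE), with a 95% interval of -1.77 to 0.04 and an edgeR adjusted p of 0.306.

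The FcR gamma chain also serves the high-affinity IgE receptor of basophils and mast cells, whose transcripts were in these libraries. Of 10 basophil and mast cell markers 8 were in the table, and their summed level was 10.8 to 27.7 CPM in CD48-/lo libraries and 46.5 to 127.9 CPM in CD48hi libraries. The basophil protease gene Mcpt8 was at 0 in CD48-/lo replicates 1 and 3. Ms4a2, the beta chain of that receptor, had 0.207, 2.08 and 0 CPM in CD48-/lo libraries against 4.64, 14.8, 15.3 and 23.3 CPM in CD48hi libraries. Fcer1a, its alpha chain, had 16.03, 2.44 and 13.3 CPM in CD48-/lo libraries against 4.63, 5.88, 3.72 and 5.52 CPM in CD48hi libraries. Ms4a2 was lower in every CD48-/lo library than in any CD48hi library, whereas Fcer1a was highest in CD48-/lo replicates 1 and 4. Within CD48hi MkPs, replicate 1 had the lowest marker sum (46.5 CPM) and the highest Fcer1g level (102.6 CPM), while replicate 5 had the highest marker sum (127.9 CPM) and the lowest Fcer1g level (27.4 CPM). Granulocyte and monocyte progenitor markers (12 of 12 in the table) summed to 65.4 to 161.9 CPM in CD48-/lo libraries and 413.6 to 620.6 CPM in CD48hi libraries. The log2 difference was below 0 for 10 of these markers and above 0 for 2, Ms4a3 (0.22) and S100a8 (2.81). The part of these cell types in the Fcer1g difference was not tested.

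Syk, the tyrosine kinase that binds the phosphorylated motifs (ENSMUSG00000021457, chromosome 13, 52583173 to 52648792, plus strand), had 74.7, 52.4 and 63.7 CPM in CD48-/lo libraries against 39.2, 74.2, 93.0 and 97.1 CPM in CD48hi libraries. The CD48hi libraries reached both below and above the CD48-/lo libraries. This gave a log2 difference of -0.26 ± 0.34 (SE) and an edgeR adjusted p of 0.729.

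Of the adaptors, Lat encodes the membrane scaffold phosphorylated by Syk (ENSMUSG00000030742, chromosome 7, 126363824 to 126369570, minus strand). It had 187.8, 240.3 and 204.7 CPM in CD48-/lo libraries against 304.4, 177.4, 107.6 and 84.8 CPM in CD48hi libraries. CD48hi replicate 1 was the highest of all 7 libraries and replicates 4 and 5 the lowest, with the CD48-/lo libraries between them. The log2 difference was 0.32 ± 0.41 (SE), with an edgeR adjusted p of 0.711. Lcp2 encodes SLP-76, the cytosolic scaffold that works with LAT (ENSMUSG00000002699, chromosome 11, 34046920 to 34092295, plus strand). It had 219.6, 158.6 and 223.9 CPM in CD48-/lo libraries against 150.3, 151.7, 209.8 and 154.0 CPM in CD48hi libraries. CD48-/lo replicates 1 and 4 and CD48hi replicate 4 formed the upper values, and the subsets overlapped. Between the subsets Lcp2 differed by 0.27 ± 0.26 on the log2 scale (SE), with an edgeR adjusted p of 0.615. The locus of Lcp2 overlaps 4930469K13Rik on the other strand, and the sources used here do not say if counting was strand-aware.

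The balance of both scaffolds varied more between CD48hi libraries than between the subsets. The ratio of Lat to Lcp2 TPM was 1.38, 2.44 and 1.47 in CD48-/lo libraries against 3.26, 1.89, 0.826 and 0.887 in CD48hi libraries. The means were 1.76 ± 0.588 in CD48-/lo (SD, n = 3) and 1.72 ± 1.14 in CD48hi (SD, n = 4). Lat is the shorter gene (2767 bases against 4459 bases for Lcp2). The ratio was lowest in CD48hi replicates 4 and 5, the libraries in which short genes were low. The part of gene length in the ratio was not tested.

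Of the enzymes assembled on these scaffolds, Plcg2 had the highest mean level but lay below Lat on the TPM scale in all 3 CD48-/lo libraries and in CD48hi replicates 1 and 3. Plcg2, which encodes phospholipase C gamma 2, the source of the calcium-releasing messenger (ENSMUSG00000034330, chromosome 8, 117498291 to 117635142, plus strand), had 204.0, 279.5 and 211.9 CPM in CD48-/lo libraries against 259.2, 254.1, 617.3 and 437.6 CPM in CD48hi libraries. CD48hi replicates 4 and 5 were above all other libraries, and the remaining CD48hi libraries lay below CD48-/lo replicate 3. The means were 232 ± 41.5 CPM in CD48-/lo (SD, n = 3) and 392 ± 173 CPM in CD48hi (SD, n = 4). The log2 difference was -0.76 ± 0.36 (SE), with a 95% interval of -1.55 to 0.03 and an edgeR adjusted p of 0.303.

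Btk, the Tec-family kinase that activates phospholipase C gamma 2 (ENSMUSG00000031264, chromosome X, 134542336 to 134583570, minus strand), had 180.1, 124.4 and 170.7 CPM in CD48-/lo libraries against 86.2, 180.7, 233.0 and 195.2 CPM in CD48hi libraries. The CD48hi libraries enclosed the CD48-/lo libraries, with replicate 1 the lowest of all. With a log2 difference of -0.13 ± 0.35 (SE), Btk had an edgeR adjusted p of 0.875. Its sign turned in the fit with the replicate number as a block (0.014) and without CD48hi replicate 4 (0.040).

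Vav1, the exchange factor that activates Rac GTPases (ENSMUSG00000034116, chromosome 17, 57279100 to 57328031, plus strand), had 172.4, 212.1 and 164.4 CPM in CD48-/lo libraries against 310.4, 213.5, 302.1 and 241.2 CPM in CD48hi libraries. It was the member whose libraries did not overlap, by a margin of 212.1 CPM in CD48-/lo replicate 3 against 213.5 CPM in CD48hi replicate 3. With RLE scaling in place of TMM, and without CD48-/lo replicate 1, the ranges overlapped. The means were 183 ± 25.5 CPM in CD48-/lo (SD, n = 3) and 267 ± 47.1 CPM in CD48hi (SD, n = 4). The log2 difference was -0.54 ± 0.26 (SE), with a 95% interval of -1.12 to 0.03 and an edgeR adjusted p of 0.308.

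Treml1 encodes TLT-1, a receptor of platelet alpha granules that carries the ITIM shown above (ENSMUSG00000023993, chromosome 17, 48359916 to 48367176, plus strand). It had 96.7, 40.9 and 103.2 CPM in CD48-/lo libraries against 41.3, 60.2, 36.5 and 27.7 CPM in CD48hi libraries. As with Clec1b, CD48-/lo replicates 1 and 4 were above every CD48hi library and replicate 3 lay among them. The means were 80.3 ± 34.2 CPM in CD48-/lo (SD, n = 3) and 41.4 ± 13.7 CPM in CD48hi (SD, n = 4). The log2 difference of 0.95 ± 0.38 (SE; 95% interval 0.11 to 1.80) did not pass after edgeR's adjustment (adjusted p = 0.254, unadjusted p = 0.0301). With replicate 3 as the 1 CD48-/lo library left, the log2 difference was -0.062, again with no test.

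**Figure D3:**
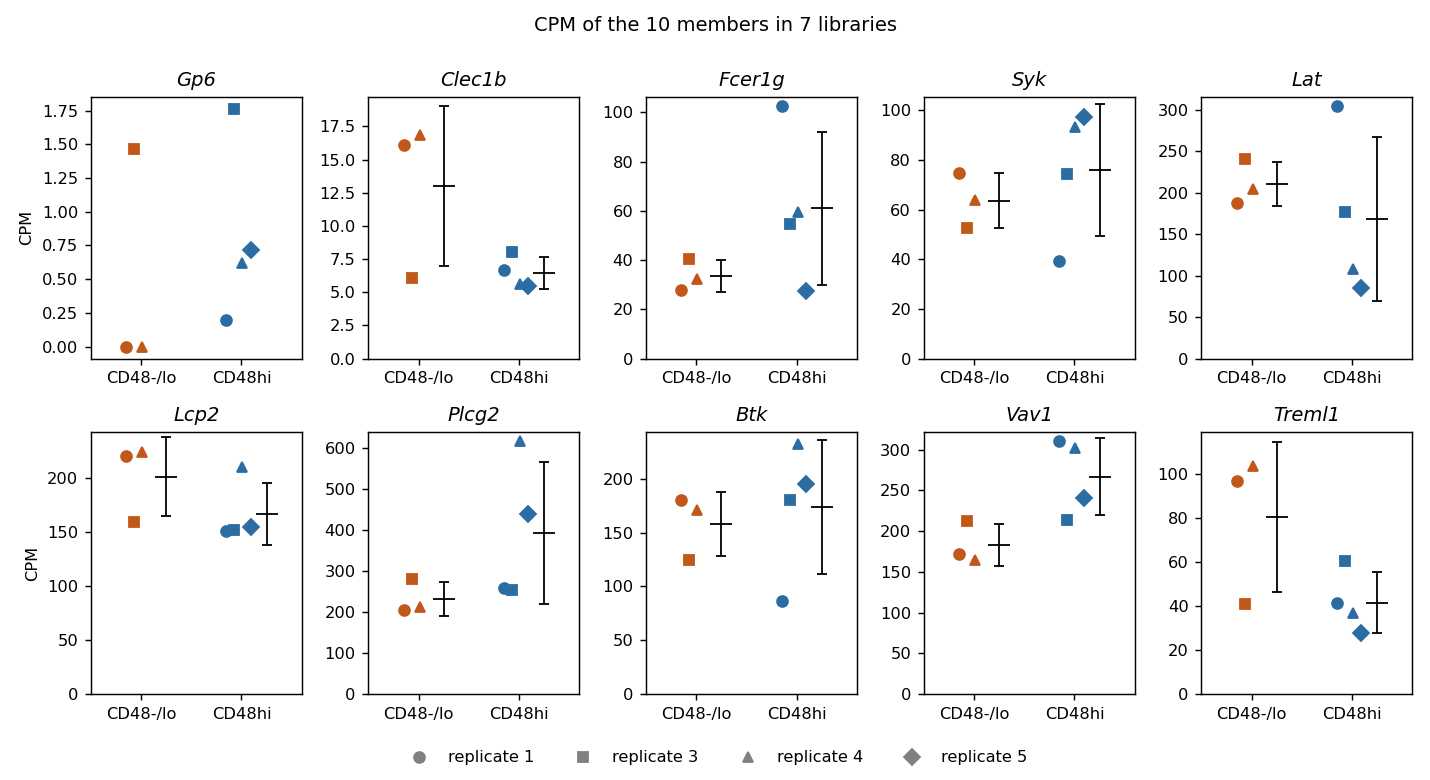
CPM of the 10 members in each library, CD48-/lo (orange) left of CD48hi (blue), with a symbol for each replicate number. Black lines give the mean ± SD except for Gp6, and the axes differ between panels. Replicates 1 and 4 set the upper CD48-/lo values of Clec1b and Treml1, and Vav1 is the panel in which the subsets do not overlap.

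Clec1b and Treml1 were both highest in CD48-/lo replicates 1 and 4. The ratio of Clec1b to Treml1 TPM was 0.0458, 0.0407 and 0.0450 in CD48-/lo libraries against 0.0446, 0.0368, 0.0423 and 0.0542 in CD48hi libraries. The means were 0.0438 ± 0.00271 in CD48-/lo (SD, n = 3) and 0.0445 ± 0.00730 in CD48hi (SD, n = 4), a difference smaller than the spread. Within CD48hi the ratio varied about as much as Clec1b itself. CD48-/lo replicates 1 and 4 were the libraries with the highest mitochondrial share (2.61% and 2.91%). Pf4, a megakaryocyte alpha granule gene, was also highest there, with 3353, 1537 and 3989 CPM in CD48-/lo libraries against 810 to 2340 CPM in CD48hi libraries. The megakaryocyte markers did not share this pattern, since 6 of the 12 were higher and 6 lower in CD48-/lo by the fitted log2 difference. Gp5, Gp1bb and Nfe2 were lowest in CD48-/lo replicates 1 and 4. For Gp5 the values were 268, 465 and 311 CPM in CD48-/lo libraries against 377 to 1991 CPM in CD48hi libraries. The part of the mitochondrial share in these values was not tested.

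**Figure D4:**
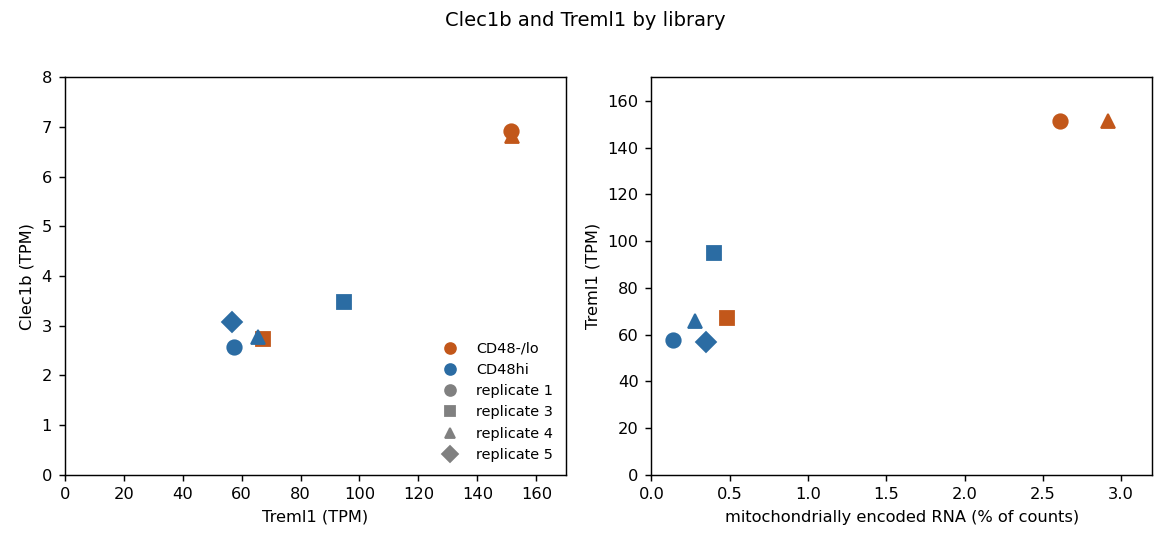
Clec1b against Treml1 (left, both in TPM) and Treml1 against the mitochondrial share of counts (right), a point for each library, CD48-/lo in orange and CD48hi in blue. CD48-/lo replicates 1 and 4 lie apart at the upper right of both panels, and CD48-/lo replicate 3 lies with the CD48hi libraries.

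The 250 bases before the start of each member were read from the RefSeq promoter table (GRCm38.p6), which held all 10 members in 11 promoters, as Syk has 2. They were searched on both strands for the GATA motif AGATAA, with T also allowed as its first and G as its last letter, the ETS motif GGAAGT, the RUNX motif TGTGGT and the motif TGAGTCA of NF-E2 and AP-1. Factors of these families are known from the megakaryocyte lineage. A GATA match was in 6 of the 11 member promoters, those of Gp6, Clec1b, Lcp2, Plcg2, Vav1 and 1 of the Syk promoters, where 26.5% of all 32851 promoters held one. An ETS match was in that of Vav1 alone (19.7% of all promoters), and RUNX (14.0%) and NF-E2 or AP-1 letters (4.46%) were in 0 of 11. The promoters of Clec1b and Treml1 are shown because these members had unadjusted p-values under 0.05. That of Clec1b (chr6:129397047-129397296, plus strand) has its GATA letters 189 bases before the start, in capitals, and that of Treml1 (chr17:48359666-48359915, plus strand) has no match to any of the letters searched.
Clec1b promoter: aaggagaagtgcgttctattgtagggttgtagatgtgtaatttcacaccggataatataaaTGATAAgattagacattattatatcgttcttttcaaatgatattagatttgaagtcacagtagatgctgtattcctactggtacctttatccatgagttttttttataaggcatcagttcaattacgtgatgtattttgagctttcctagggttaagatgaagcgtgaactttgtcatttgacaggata
Treml1 promoter: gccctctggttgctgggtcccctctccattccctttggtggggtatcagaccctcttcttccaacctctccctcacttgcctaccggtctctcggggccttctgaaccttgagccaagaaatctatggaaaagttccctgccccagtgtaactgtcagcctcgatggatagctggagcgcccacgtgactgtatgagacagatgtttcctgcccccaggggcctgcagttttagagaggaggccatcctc
A match of letters is a description and not a binding site.

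The genes around the members were taken from 9 lists of 118 genes, of which 110 were in the table and 102 were tested. By edgeR 0 of the 102 were called, and 34 had an unadjusted p under 0.05, 14 higher (8.37% of all genes) and 20 lower (8.87%) in CD48-/lo. DESeq2 called 3 higher (2.67% of all genes), Dok2, Cd72 and Clec1a, and 12 lower (3.19%). The lower genes were Lyn, Ubash3a, Dok3, Prkcd, Card9, Pirb, Fcgr2b, Tyrobp, Fcgr3, Il3ra, Nfam1 and Clec12a. Limma voom called 7 (2.36% of all genes), Dok3, Prkcd, Card9, Pirb, Cd72, Ms4a2 and Clec1a. The adjusted p-values given for single genes below are those of edgeR, which called fewer genes. The median log2 difference over the lists was -0.05, against 0.03 over all genes, and in 24 of 102 the subsets did not overlap (14.6% of all genes).

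Among Src-family kinases and the phosphatases that set their activity, 19 of 20 genes were tested and 0 were called by edgeR. Lyn, a Src-family kinase that phosphorylates the ITAM, had 101, 135 and 110 CPM in CD48-/lo libraries against 195, 153, 293 and 229 CPM in CD48hi libraries, with no overlap (edgeR adjusted p = 0.199). Ubash3a, a negative regulator of antigen receptor signalling in T cells, was at 34.1 to 64.9 CPM in CD48-/lo and 79.1 to 111 CPM in CD48hi libraries. Yes1, another Src-family kinase, had 7.99, 7.99 and 5.05 CPM in CD48-/lo libraries against 0.262, 0.938, 2.72 and 0 CPM in CD48hi libraries. The most abundant gene of the list was Ptpn6, the phosphatase SHP-1 recruited by ITIMs, at a mean of 148 TPM.

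Among the other adaptors, 19 of 20 were tested and 0 were called by edgeR. Dok3, an adaptor that restrains kinase signalling, was low, with 0.301, 0.973 and 0.647 CPM in CD48-/lo libraries against 1.90, 3.84, 2.64 and 5.51 CPM in CD48hi libraries (edgeR adjusted p = 0.125). Its relative Dok2 differed in the other direction, with 158, 75.5 and 175 CPM in CD48-/lo libraries against 63.9 to 70.0 CPM in CD48hi libraries (edgeR adjusted p = 0.181). Sos1, a Ras exchange factor, was at 22.5 to 41.3 CPM in CD48-/lo and 9.49 to 21.0 CPM in CD48hi libraries. Dapp1, an adaptor that binds PI3K lipid products, was the most abundant at 567 TPM.

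Of the relatives of Syk, Btk, Vav1 and Plcg2, 5 of 8 were tested and 0 were called by edgeR, and Zap70, Bmx and Txk were not among the genes analysed here. Vav3 was at 14.7 to 19.6 CPM in CD48-/lo and 5.12 to 15.7 CPM in CD48hi libraries (edgeR adjusted p = 0.284). Plcg1 was at 12.7 to 18.2 CPM in CD48-/lo and 16.03 to 32.3 CPM in CD48hi libraries. Tec was the most abundant relative at 26.5 TPM, against 125 TPM for Btk.

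Of the PI3K subunits and lipid phosphatases, 12 of 12 were tested and 0 were called by edgeR. The catalytic subunit gene Pik3cd was at 29.7 to 34.3 CPM in CD48-/lo and 28.9 to 90.6 CPM in CD48hi libraries (edgeR adjusted p = 0.234), and the regulatory subunit gene Pik3r2 at 11.96 to 16.7 CPM in CD48-/lo and 17.5 to 44.7 CPM in CD48hi libraries. Inpp5d, the phosphatase SHIP1, was the most abundant at 31.8 TPM.

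Of the protein kinase C, Rap1, Rac and PAK genes downstream, 15 of 16 were tested and 0 were called by edgeR. Card9, a scaffold downstream of protein kinase C, had 2.05, 1.45 and 2.04 CPM in CD48-/lo libraries against 3.75, 8.22, 6.55 and 7.41 CPM in CD48hi libraries (edgeR adjusted p = 0.103). Prkcd, protein kinase C delta, had 52.3, 64.3 and 41.7 CPM in CD48-/lo libraries against 83.9, 97.9, 139 and 121 CPM in CD48hi libraries (edgeR adjusted p = 0.163). Rasa3, which turns Rap1 off, was at 173 to 252 CPM in CD48-/lo and 256 to 596 CPM in CD48hi libraries. These 3 genes, named for the smallest unadjusted p of the list, did not overlap between the subsets. In the list as a whole 4 of the 15 tested genes did not overlap, where 14.6% of all genes did not. Arhgdib was the most abundant at 617 TPM.

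Of the inhibitory receptors with an ITIM, 10 of 12 were tested and 0 were called by edgeR. Cd72 came nearest, with 14.2, 10.0 and 13.3 CPM in CD48-/lo libraries against 3.70, 4.39, 6.10 and 3.61 CPM in CD48hi libraries (log2 difference 1.49, edgeR adjusted p = 0.0964). Pirb, a myeloid inhibitory receptor, had 0.0753, 0.210 and 0 CPM in CD48-/lo libraries against 0.864, 1.82, 3.89 and 1.64 CPM in CD48hi libraries. Fcgr2b, the inhibitory Fc receptor, was at 3.74 to 6.31 CPM in CD48-/lo and 7.62 to 13.4 CPM in CD48hi libraries. Cd72, Pirb and Fcgr2b were named for the smallest unadjusted p of the list. The ITIM receptors best known from platelets beside TLT-1 were not named by p-value, and like Treml1 they overlapped between the subsets. Pecam1 had 54.8, 48.8 and 64.9 CPM in CD48-/lo libraries against 41.8, 65.5, 54.3 and 54.9 CPM in CD48hi libraries, and Mpig6b was at 1.81 to 2.45 CPM in CD48-/lo and 0.539 to 4.37 CPM in CD48hi libraries. Cd300a was the most abundant of the list at 24.8 TPM, below Treml1 at 92.2 TPM.

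Of the other ITAM chains and partners of the FcR gamma chain, 11 of 16 were tested and 0 were called by edgeR. Ms4a2, given above with Fcer1g, had an edgeR adjusted p of 0.164, and without CD48-/lo replicate 3 it was the 1 gene of the 9 lists that edgeR called (adjusted p = 0.0429, with 0.41% of all genes called). Tyrobp, the ITAM adaptor DAP12, had 1.83, 1.16 and 1.31 CPM in CD48-/lo libraries against 3.89, 10.0, 3.87 and 2.91 CPM in CD48hi libraries. Il3ra, the alpha chain of the interleukin 3 receptor, was at 1.86 to 4.17 CPM in CD48-/lo and 6.64 to 8.59 CPM in CD48hi libraries. Cd79b, known as an ITAM chain of the B cell receptor, was the most abundant at 29.3 TPM. Cd79a, its partner there, was at 0 in 5 of the 7 libraries.

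Of the genes listed with Treml1, 6 of 6 were tested and 0 were called by edgeR. Treml2 followed the pattern of Treml1, with 45.8, 22.7 and 50.4 CPM in CD48-/lo libraries against 28.5, 20.9, 21.4 and 17.04 CPM in CD48hi libraries (edgeR adjusted p = 0.251), and was the most abundant of the list at 13.4 TPM. Nfam1, an ITAM receptor of lymphoid and myeloid cells and not a TREM gene, was at 16.5 to 25.3 CPM in CD48-/lo and 37.8 to 44.0 CPM in CD48hi libraries, and Trem1 was at most 1.03 CPM. Of the C-type lectin genes beside Clec1b, 5 of 8 listed genes were tested and 0 were called by edgeR. Clec1a, its neighbour, had 6.55, 3.97 and 4.99 CPM in CD48-/lo libraries against 0.926, 0.331, 1.41 and 1.59 CPM in CD48hi libraries, high in replicate 3 as well (edgeR adjusted p = 0.117). Clec12a, an inhibitory lectin of myeloid cells, was at 0.950 to 1.62 CPM in CD48-/lo and 2.72 to 5.44 CPM in CD48hi libraries, and Clec2d at 1.13 to 1.32 CPM in CD48-/lo and 0.366 to 0.552 CPM in CD48hi libraries. Clec7a, the beta-glucan receptor, was the most abundant of the list at 1.88 TPM, and the CLEC-2 ligand gene Pdpn was not among the genes analysed here. The part of the granulocyte, monocyte and basophil markers in these lists was not tested.

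**Figure D5:**
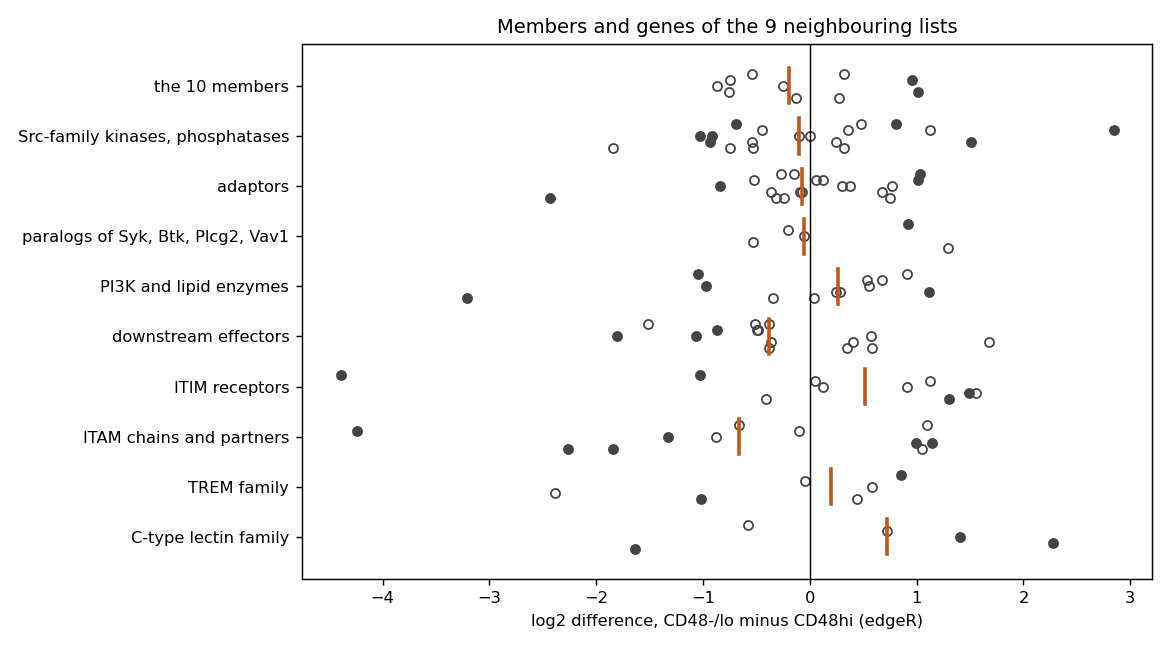
Log2 difference of CD48-/lo minus CD48hi for the 10 members (top) and the tested genes of the 9 lists, with filled circles for an unadjusted p under 0.05, open circles for the others and an orange bar for each list's median. The members lie between -0.87 and 1.01, and the list medians lie on both sides of 0.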

How the data were processed

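RNA was measured in 7 libraries, primed on poly(A) tails, amplified by template switching and tagmented. The authors used GSNAP (2020-12-16) with Ensembl 98 splice sites on mm10, and counted reads with a unique alignment by featureCounts (2.0.1), per the submitters' notes and the published methods. The deposited values used here are whole-number raw counts with no normalization, with the table's gene lengths used for TPM. Reads shared by overlapping genes may be lost or misplaced, since the sources used here do not say if counting was strand-aware. Every gene in the table had at least 11 counts in sum. The authors' normalised and comparison tables were not used.

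The main test used edgeR 4.0.16 (R 4.3.3) with filterByExpr (16653 genes, 99.95% of counts), TMM factors (0.914 to 1.06) and quasi-likelihood F tests, CD48-/lo over CD48hi, with Benjamini-Hochberg adjustment over all genes and a threshold of 0.05. Standard errors were derived from the F statistic. Alternatives were RLE or no scaling, no filter or 1 CPM in 3 libraries, DESeq2 1.42.0, limma 3.58.1 with voom and quality weights, a replicate block, totals without ribosomal protein, haemoglobin and mitochondrial genes, each library left out in turn, and a threshold of 0.1. Leaving out CD48-/lo replicates 1 and 4 together and an offset for gene length were added after the data were seen. The scripts were tested on simulated data.

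Members, gene lists and marker lists were chosen with earlier results of these data known. Named beside the members are the up to 3 genes of each list with the smallest unadjusted p and the most abundant by TPM. Fcer1a, Ms4a2, Pecam1 and Mpig6b are named too, as are the genes of the lists that DESeq2 or limma voom called. Other genes (Pf4, Gp5, Gp1bb, Nfe2, Cd79a, Mcpt8, Clec9a and listed genes that were not tested) were named after their values were seen. Some genes that this rule names are not reported here.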

Additional observations from a re-analysis of the deposited data

Results flagged for a closer look

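Lcp2 in the CD48hi libraries was singled out because 1 library lay far from the others. CD48hi replicate 4 had 209.8 CPM against 150.3 to 154.0 CPM in the other CD48hi libraries, so its gap to the nearest took 0.938 of the whole range, above Dixon's 95% critical value for 4 samples. Chance alone passes this critical value in about 1 in 20 groups, and 10 genes were examined. The cause was not tested.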

How the results depend on the processing

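No member passed the threshold under any of the 16 other settings of the methods, the additions aside, and of 149 log2 differences of members under them 147 kept their direction. The exceptions were those of Btk, with the replicate block and on leaving out each library, where it ranged from -0.43 to 0.040 (without CD48hi replicate 4). The count of members whose subsets did not overlap was 0 with RLE scaling and ranged from 0 to 6 on leaving out each library. It reached 6 without CD48-/lo replicate 3 (Gp6, Clec1b, Lcp2, Plcg2, Vav1 and Treml1), where 33.8% of all genes did not overlap, against 14.6% with all libraries. The count of called genes of the 9 lists was 15 by DESeq2, 7 by limma voom and 1 at a threshold of 0.1 (Cd72), and ranged from 0 to 1 on leaving out each library. Without CD48-/lo replicates 1 and 4 the log2 difference of Gp6 was 0.82, of Clec1b -0.14, of Lcp2 -0.12 and of Treml1 -0.062, values with no test, since 1 CD48-/lo library was left. With the gene length offset the values of Fcer1g (-1.09), Clec1b (1.06) and Treml1 (0.77) kept their direction and 0 members were called. Gp6 has no value under the filter of 1 CPM in 3 libraries, which removed it. The causes were not tested.

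The deviations of same-numbered libraries did not rise and fall together, with correlations of -0.08, -0.15 and -0.03. Whether such libraries share a mouse or a sort is not stated. These correlations cannot decide it, since a shared origin need not show in them. With the replicate number as a block, 0 members and 0 genes of the lists were called, 16 genes in all against 32 without the block, and the log2 difference of Btk was 0.014.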
